A study of Arabidopsis thaliana with 5 samples.

Results

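The transcription factors that control the plant cuticle were followed in sorted leaf epidermal cells of Arabidopsis thaliana seedlings. The set holds 9 genes, listed by name for their known role, with earlier results of these data known: the R2R3-MYB genes MYB16, MYB106, MYB30, MYB94 and MYB96, and the AP2/ERF genes SHN1, SHN2, SHN3 and DEWAX. All 9 were among the 24200 genes of the deposited gene table, 6 of them passed the filter on low values, and the 3 SHN genes did not. Seedlings of the hdl mutant (allele hdl-1, 2 libraries) were compared with wild type (WT, 3 libraries). All seedlings were 9 days old and grown on plates in long days, and all carried a red fluorescent membrane reporter (RCI2A-mCherry) driven by the promoter of ATML1, an epidermal homeodomain gene. Protoplasts with the red signal were sorted, so the cells had lost their walls before RNA was taken. A single mutant allele was measured, all libraries carry batch number 1, and nothing in the labels ties replicates to separate plantings, so a p-value here measures how far these libraries scatter, which may be technical scatter.

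The cuticle is the lipid layer that seals the outer wall of the epidermis. It is made of cutin, a polyester of hydroxylated fatty acids, and of waxes derived from very-long-chain fatty acids. MYB16 and MYB106 are MIXTA-like factors that promote cuticle formation, and MYB106, also known as NOECK, limits trichome branching. MYB96 and MYB94 activate wax synthesis genes, in particular under drought and abscisic acid, and the related MYB30 promotes very-long-chain fatty acid synthesis during pathogen defence. The SHINE factors SHN1, SHN2 and SHN3 promote cutin and wax formation, whereas DEWAX is an AP2/ERF repressor of wax genes that acts in the dark.

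The upstream sequences of the MYB96, MYB94 and MYB30 subgroup, and of the wax gene CER6, are shown because these factors are known to act on wax gene promoters and because the MYB96 and MYB94 windows share a stretch of sequence. Each is the 250 bases before the annotated start, 5′ to 3′ on the gene's own strand, from the RefSeq TAIR10.1 genome. Capitals mark matches to any of 5 motifs searched on both strands: TAACTA (a MYB motif), ACCNAAC (the AC element), GCCGCC (the GCC box of AP2/ERF factors), TAAATGCA or TAAATGTA (the L1 box, which epidermal homeodomain factors bind) and ACGTG (the core of the abscisic acid response element).
MYB96: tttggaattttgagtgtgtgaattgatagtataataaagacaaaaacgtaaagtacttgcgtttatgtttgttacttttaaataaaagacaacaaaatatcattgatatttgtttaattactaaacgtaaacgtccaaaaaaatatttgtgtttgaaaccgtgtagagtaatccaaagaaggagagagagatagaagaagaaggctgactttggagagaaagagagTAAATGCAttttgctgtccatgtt
MYB94: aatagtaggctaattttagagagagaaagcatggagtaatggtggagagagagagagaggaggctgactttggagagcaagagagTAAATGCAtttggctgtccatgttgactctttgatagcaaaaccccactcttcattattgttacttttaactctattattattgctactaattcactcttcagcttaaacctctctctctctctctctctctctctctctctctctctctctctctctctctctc
MYB30: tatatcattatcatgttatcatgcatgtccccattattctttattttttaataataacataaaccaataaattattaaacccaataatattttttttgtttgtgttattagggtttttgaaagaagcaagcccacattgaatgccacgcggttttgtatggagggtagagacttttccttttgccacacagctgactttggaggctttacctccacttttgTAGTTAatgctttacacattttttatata
CER6: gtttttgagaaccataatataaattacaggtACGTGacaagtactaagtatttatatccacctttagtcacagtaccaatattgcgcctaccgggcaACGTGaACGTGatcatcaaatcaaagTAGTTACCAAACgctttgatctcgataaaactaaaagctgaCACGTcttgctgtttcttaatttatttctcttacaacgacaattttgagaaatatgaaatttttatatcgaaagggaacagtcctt
These windows lie at chr5:25081142-25081391 (minus strand), chr3:17541308-17541557 (minus strand), chr3:10910882-10911131 (plus strand) and chr1:25715025-25715274 (minus strand) in the order shown. The MYB96 and MYB94 windows share 18 bases that include the L1 box, aagagagtaaatgcattt, and these were found in only these 2 of 27438 windows of protein-coding genes. The L1 box began 24 bases before the annotated start of MYB96 and 165 bases before that of MYB94. A 13-base stretch, gctgactttggag, was shared by MYB96, MYB94 and MYB30 and was found in 3 of the 27438 windows. Both stretches were picked from these windows as the longest they share, so the counts of windows do not test how unusual the sharing is. The L1 box was present in 2 of the 9 factor windows, 3 of 21 wax gene windows and 1 of 15 cutin gene windows, against 4.49% of all windows. TAACTA was in 5 of the 9 factor windows (MYB106, MYB30, SHN2, SHN3 and DEWAX), 6 of 21 wax and 5 of 15 cutin gene windows, against 20.6% of all. In CER6 it overlapped an AC element by a base, and the other 4 capital stretches are ACGTG. The GCC box was in 0 of the 9 factor windows and 0 of the 21 wax gene windows, against 1.87% of all, and in 1 of 15 cutin gene windows. The AC element was in 1 of the 9 factor windows, 5 of 21 wax and 3 of 15 cutin gene windows, against 14.5% of all. ACGTG was in 1 of the 9 factor windows, 4 of 21 wax and 5 of 15 cutin gene windows, against 22.9% of all. Such matches describe the letters of these windows and not the binding of a factor.

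The libraries held 18316092 and 19741801 recovered reads in hdl and 15418154 to 22838239 in WT. Values are normalized counts, which are reads divided by a size factor per library. The epidermal markers ATML1, PDF2, PDF1, CER6 and LTP1 were present in every library and summed to 51001 to 56664 normalized counts in hdl and 17389 to 19292 in WT, with 3 of 5 (PDF2, CER6 and LTP1) called higher in hdl. Most of that difference lay in CER6 and LTP1, a lipid transfer protein gene. ATML1, PDF2 and PDF1 alone summed to 10017 and 8850 in hdl and 7689, 9559 and 7088 in WT replicates 1, 2 and 3, and ATML1 (0.23) and PDF1 (-0.21) were not called. Markers of other tissues were abundant too: 5 mesophyll genes summed to 280464 to 286380 in hdl and 202531 to 281370 in WT, with 2 of 5 called higher, and 5 vascular genes to 20971 to 22419 in hdl and 43203 to 68753 in WT, with 3 of 5 called lower. The mesophyll markers CAB3 (log2 change -0.42) and LHB1B1 (-1.64) went the other way, with every hdl library below every WT library, and were not called. PSBO1 (0.41), also a mesophyll marker, was not called either. SUC2, a vascular marker at 0.39, was not called. The part of such cells in the results below was not tested, and in bulk RNA fewer cells of a type and less RNA per cell cannot be told apart. HDL transcript levels were not analysed here.

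None of the 6 tested factors passed the test of hdl against WT over all 5 libraries. Changes are given on the scale of log2(normalized count + 1), hdl minus WT, from limma's moderated test, and a gene was called at a Benjamini-Hochberg adjusted p under 0.05 over all 20391 genes tested. Of all tested genes 8.21% were called higher and 4.5% lower in hdl, while 0 of 6 factors were called in either direction, and 0 had an unadjusted p under 0.05. With so few factors, 0 calls at these shares does not set them apart from all tested genes. edgeR and DESeq2, run on the recovered reads, also called 0 of the 6; they called 7.97% and 12.8% of all genes higher and 4.08% and 10.6% lower. For none of the 6 did every hdl library lie above or below every WT library, whereas 26.7% of all tested genes lay wholly above and 26.9% wholly below. The 95% intervals were wide, so a change of 2-fold was within the interval of each factor except MYB30.

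**Figure D1:**
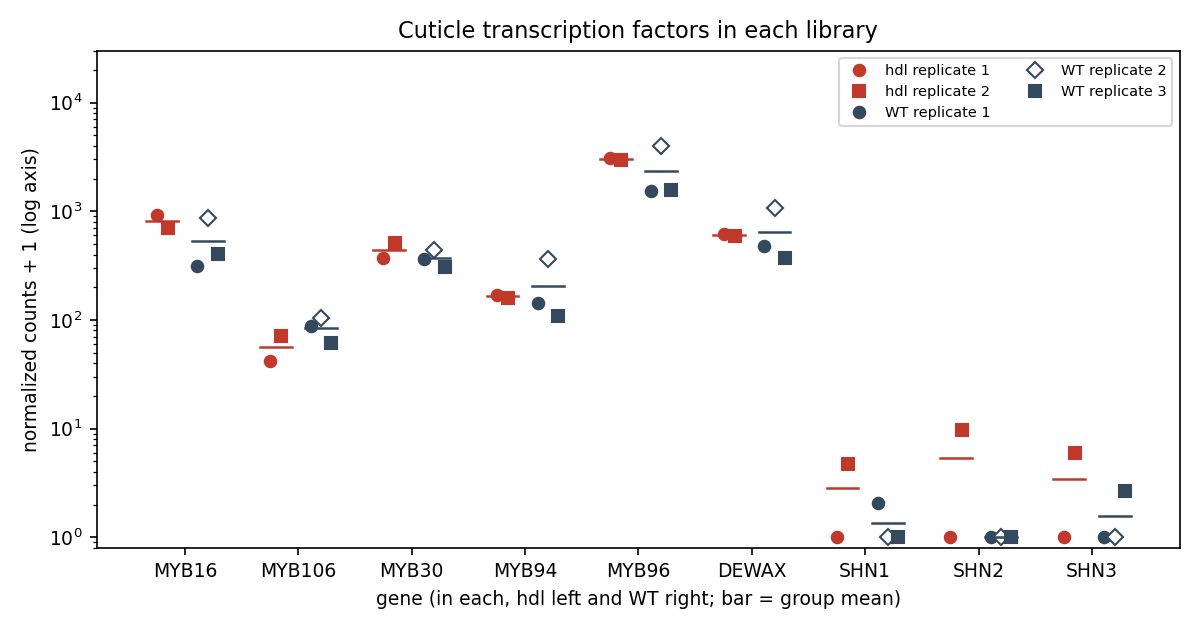
Normalized counts plus 1 (log axis) of the 9 factors in each library, with hdl (red) left of WT (dark) and bars at the group means. WT replicate 2 (open diamonds) is the highest WT library in MYB16, MYB106, MYB30, MYB94, MYB96 and DEWAX, and the 3 SHN genes lie between 0 and 8.65 normalized counts.

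MYB96 was by far the most abundant of the set. MYB96 (AT5G62470, chromosome 5, 25078991 to 25081141, minus strand) had 3099 and 2959 normalized counts in the hdl libraries, against 1534, 3962 and 1560 in WT replicates 1, 2 and 3. The hdl libraries lay close together and between the WT values, of which WT replicate 2 alone was above them. The means were 3029 ± 99.1 in hdl and 2352 ± 1395 in WT (mean ± SD, n = 2 and n = 3). The log2 change was 0.52 ± 0.42 (SE, limma adjusted p = 0.43), with a 95% interval from -0.50 to 1.54.

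MYB94, the close relative of MYB96 (AT3G47600, chromosome 3, 17539289 to 17541307, minus strand), had 169 and 158 normalized counts in hdl, against 141, 365 and 108 in WT replicates 1, 2 and 3. The pattern was that of MYB96, with the hdl libraries close together and WT replicate 2 above all others, but the change in the means had the opposite sign. The log2 change was -0.12 ± 0.52 (SE, limma adjusted p = 0.897), with a 95% interval from -1.38 to 1.15. The longest stretch that the 2 gene spans share is 53 bases, the longest for any pair in the set. Read length is not given in the sources used here, so some reads may not tell these genes apart.

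MYB30, the third member of this subgroup (AT3G28910, chromosome 3, 10911132 to 10913190, plus strand), had 372 and 510 normalized counts in hdl, against 366, 442 and 306 in WT replicates 1, 2 and 3. Its libraries differed least among the 6 factors and the groups overlapped. The log2 change was 0.25 ± 0.24 (SE, limma adjusted p = 0.511), with a 95% interval from -0.34 to 0.83. The change was 0.47 without hdl replicate 1 and 0.020 without hdl replicate 2.

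The MIXTA-like factors had changes of opposite sign. MYB16 (AT5G15310, chromosome 5, 4974671 to 4976470, plus strand) had 927 and 699 normalized counts in hdl, against 315, 872 and 407 in WT replicates 1, 2 and 3. Both hdl libraries were above WT replicates 1 and 3, while WT replicate 2 lay between them. The means were 813 ± 161 in hdl and 531 ± 299 in WT (mean ± SD, n = 2 and n = 3), with a log2 change of 0.74 ± 0.43 (SE, limma adjusted p = 0.282) and a 95% interval from -0.31 to 1.78.

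MYB106 (AT3G01140, chromosome 3, 46330 to 48296, minus strand) was the least abundant tested factor, with 40.5 and 70.4 normalized counts in hdl, against 87.0, 102 and 60.9 in WT replicates 1, 2 and 3. hdl replicate 1 was the lowest library and hdl replicate 2 lay within the WT range. These values rest on 30 and 57 reads in hdl and 73 to 82 reads in WT. Markers of trichomes, where MYB106 is known to act, were mixed. GL2 had 107 and 1330 normalized counts in hdl, against 1320, 861 and 1099 in WT replicates 1, 2 and 3, and so was lowest in hdl replicate 1, as MYB106 was. The other 4 markers summed to 109 and 91.4 in hdl, against 70.0, 65.3 and 50.04 in WT replicates 1, 2 and 3, and so were highest in that library; 0 of the 4 trichome markers tested were called. The part of trichome cells in the MYB106 level was not tested. The log2 change was -0.60 ± 0.43 (SE, limma adjusted p = 0.367), with a 95% interval from -1.64 to 0.43. The change was -0.21 without hdl replicate 1 and -0.99 without hdl replicate 2. It is the only tested factor that overlaps a gene on the opposite strand, the long noncoding RNA gene AT3G01142 (chromosome 3, 46718 to 48296). That gene had 49.9 and 66.7 normalized counts in hdl and 77.4, 99.9 and 53.4 in WT replicates 1, 2 and 3, in the same order of libraries as MYB106. The sources used here do not state whether counting used strand, so the reads of the 2 genes may not be told apart.

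DEWAX, the repressor (AT5G61590, chromosome 5, 24764256 to 24765511, minus strand), had 623 and 587 normalized counts in hdl, against 478, 1071 and 371 in WT replicates 1, 2 and 3. The hdl libraries again lay close together, above WT replicates 1 and 3 and below WT replicate 2. The log2 change was 0.072 ± 0.44 (SE, limma adjusted p = 0.923), with a 95% interval from -0.98 to 1.13. Its sign depended on the tool, at -0.091 with edgeR (adjusted p = 0.91) and -0.081 with DESeq2 (adjusted p = 0.931).

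Few or no reads came from the SHINE genes. SHN1 (AT1G15360, chromosome 1, 5283268 to 5284736) had 0 and 3 reads in hdl replicates 1 and 2, against 1, 0 and 0 in WT replicates 1, 2 and 3. SHN2 (AT5G11190, chromosome 5, 3564824 to 3566260) had 0 and 7 reads in hdl and 0 in every WT library. SHN3 (AT5G25390, chromosome 5, 8820458 to 8822062) had 0 and 4 reads in hdl, against 0, 0 and 2 in WT. All hdl reads of the 3 genes came from hdl replicate 2. A count of 0 allows up to 3 reads, or at most 4.05 normalized counts in any library, for counting error only. With no filter on low values, limma called 0 of the 3 (adjusted p = 0.654, 0.389 and 0.659 for SHN1, SHN2 and SHN3); 6.45% of all genes were then called higher and 3.38% lower. A difference between hdl and WT was not detectable at this depth.

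Per length of annotated exons, the order of mean WT levels was MYB96, DEWAX, MYB16, MYB30, MYB94 and MYB106. MYB96 had 1693 ± 55.4 normalized counts per kilobase in hdl and 1315 ± 780 in WT (mean ± SD, n = 2 and n = 3), above 93.1% of tested genes in hdl and 92.8% in WT. DEWAX followed with 482 ± 20.5 in hdl and 510 ± 300 in WT, and MYB106 came last with means of 34.3 in hdl and 51.6 in WT, above 21.0% and 23.2% of tested genes. By the ranges over libraries, only MYB96 stood apart from its neighbour in both groups. In WT its lowest value was 857, in WT replicate 1, and the highest of DEWAX was 853 normalized counts per kilobase, in WT replicate 2. Such ranges compare different libraries, and the order within each library was not assessed. In WT the ranges of all other neighbours in the order overlapped, whereas in hdl only those of DEWAX and MYB16 did.

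WT replicate 2 stood apart in 4 of the 6 tested factors. On the log2 scale it was above the mean of WT replicates 1 and 3 by 1.56 for MYB94, 1.36 for MYB96, 1.34 for DEWAX and 1.28 for MYB16, against 0.49 for MYB106 and 0.40 for MYB30. The first 4 values lay above those of 95.7% to 97.2% of tested genes, whose median was -0.017. These 4 factors were at least 2-fold higher in WT replicate 2 than in both other WT libraries, as were 4.97% of all tested genes; the fold was chosen after the values were seen and no test is given. None of the 6 reached that margin in WT replicate 1 or 3, where 1.03% and 1.38% of all tested genes did. At these shares, 0 of 6 does not set the factors apart from all tested genes. The 4 include 3 activators and the repressor DEWAX.

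**Figure D2:**
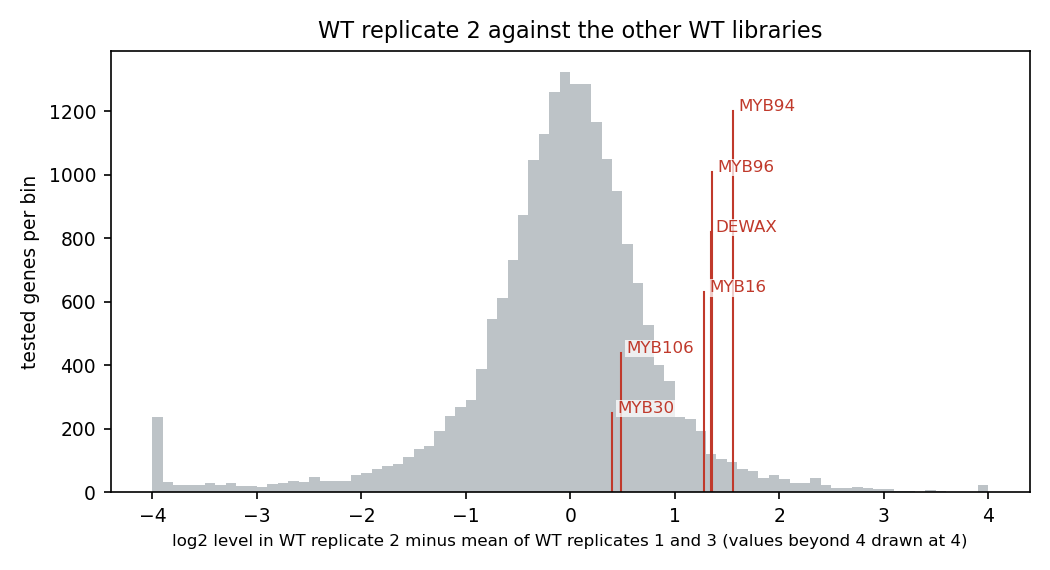
Distribution over the 20391 tested genes of the log2 level in WT replicate 2 minus the mean of WT replicates 1 and 3 (grey bars, genes per bin), with the 6 factors as red lines whose heights only separate the labels. MYB16, DEWAX, MYB96 and MYB94 lie at 1.28 to 1.56, in the right tail.

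WT replicate 2 was also the shallowest library, with 15418154 reads. Over 5 guard cell markers, of which 1 (FAMA) was called lower in hdl, the sums were 409 and 593 normalized counts in hdl. WT replicate 2 was the highest WT library at 1009 normalized counts, beside 652 for WT replicate 1 and 856 for WT replicate 3. For FAMA, KAT1, SLAC1 and MPK12 every hdl library was below every WT library, and WT replicate 2 was highest. MYB60 (0.68, limma adjusted p = 0.152) went the other way, with every hdl library above every WT library. Its highest WT library was WT replicate 3, at 168 against 120 and 133 in WT replicates 1 and 2. WT replicate 2 was the highest WT library for mesophyll markers, at 281370 against 243386 and 202531, of which LHB1B1 took 95243 against 30508 and 24864. Of the other mesophyll markers, RBCS2B and CAB3 were lowest in WT replicate 2 among the WT libraries, and PSBO1 was highest there. WT replicate 2 was the lowest WT library for vascular markers, at 43203, and for trichome markers, at 926, of which GL2 took 861. Without GL2 the trichome markers summed to 65.3 there, between 70.0 for WT replicate 1 and 50.04 for WT replicate 3. The part of these differences in the factor levels was not tested. No label sets this library apart.

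Without WT replicate 2, MYB96 and MYB16 were higher in hdl. MYB96 then changed by 0.97 ± 0.079 (SE, limma adjusted p = 0.0006; 95% interval 0.77 to 1.16) and MYB16 by 1.17 ± 0.20 (SE, limma adjusted p = 0.00758; 95% interval 0.68 to 1.65). In that comparison 17.5% of all genes were called higher and 11.3% lower, so 2 of 6 factors called higher and 0 lower is to be read against a larger background. Both calls were also made with edgeR, with DESeq2 and with libraries scaled to equal totals, when WT replicate 2 was left out; these called 17.3%, 18.6% and 11% of all genes higher and 11.4%, 13.3% and 25.5% lower. DEWAX at 0.52 (limma adjusted p = 0.0591), MYB94 at 0.40 (limma adjusted p = 0.29), MYB30 at 0.38 (limma adjusted p = 0.212) and MYB106 at -0.44 (limma adjusted p = 0.497) did not pass. MYB94 was the factor whose sign turned. With all 5 libraries, or with any other library left out, 0 factors passed, so the calls of MYB96 and MYB16 rest on 2 WT libraries. In those fits 0% of all genes were called in either direction without hdl replicate 1, 2.44% higher and 5.33% lower without hdl replicate 2, 3.92% higher and 0.922% lower without WT replicate 1, and 1.83% higher and 0.353% lower without WT replicate 3.

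**Figure D3:**
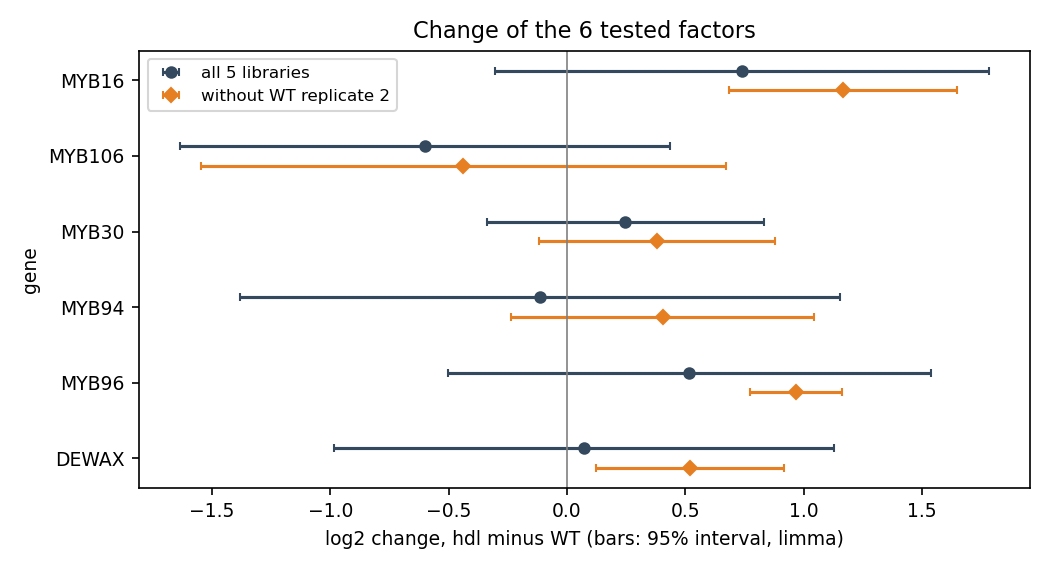
Log2 change, hdl minus WT, of the 6 tested factors with 95% intervals from limma, over all 5 libraries (circles) and without WT replicate 2 (diamonds). Without that library the intervals of MYB16, MYB96 and DEWAX lie above 0, and those of MYB106, MYB30 and MYB94 include it.

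Ratios within a library do not depend on library scaling and were compared for 4 pairs of related factors. Over the 5 libraries the exact two-sided permutation test cannot give a p below 0.1, so no pair could pass. The log2 ratio of MYB96 to MYB94 was 4.19 and 4.22 in hdl, against 3.43, 3.44 and 3.85 in WT replicates 1, 2 and 3. MYB96 was thus high relative to MYB94 in both hdl libraries, and WT replicate 2, which stood apart in each gene, did not stand apart in their ratio. The difference of 0.63 had an exact permutation p of 0.2 (adjusted p = 0.4 over the 4 pairs). The log2 ratio of MYB106 to MYB16 was -4.48 and -3.29 in hdl, against -1.84, -3.08 and -2.72 in WT replicates 1, 2 and 3. Every hdl library was below every WT library, with a difference of -1.34. The exact permutation p was 0.1, the smallest the test can give (adjusted p = 0.4). With 5 in place of 1 added to each value, the exact permutation p was 0.2. As above, the MYB106 reads may include those of an overlapping gene. The difference was -0.75 without hdl replicate 1 and -1.94 without hdl replicate 2. The differences were 0.27 for MYB96 over MYB30 and -0.36 for MYB94 over MYB30, with exact permutation p-values of 0.6 and 0.7 (adjusted p = 0.7 for both). The MYB96 over MYB30 difference was 0.0097 without hdl replicate 1, 0.040 without WT replicate 1 and 0.59 without WT replicate 2.

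The profiles of the factors over the 5 libraries were most alike for MYB94 and DEWAX. Likeness was measured as the root mean square distance between log2 profiles, each centred on its own mean. This distance was 0.12 for MYB94 and DEWAX and 0.19 for MYB16 and MYB96, the smallest of the 15 pairs, and 0.86 for MYB16 and MYB106, the largest. Among 32 wax and cutin genes the one nearest to both MYB16 and MYB96 was PAS2, a dehydratase gene of fatty acid elongation, at 0.20 and 0.21. PAS2 had 565 and 623 normalized counts in hdl, against 246, 569 and 325 in WT replicates 1, 2 and 3. LACS1, an acyl-CoA synthetase gene of wax synthesis, was nearest to MYB94 (0.33), DEWAX (0.28) and MYB106 (0.37). GPAT6, an acyltransferase gene of cutin synthesis, was nearest to MYB30 (0.24).

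Wax and cutin genes, several of them known targets of these factors, rose in hdl, while none of the factors passed the test. The wax and cutin lists, too, were drawn up with earlier results of these data known. Of 18 tested wax genes 13 rose and 0 fell, with a median log2 change of 1.16. Of 14 tested cutin genes 6 rose and 0 fell, with a median of 1.06. The factors had a median of 0.16 with 0 called, and all tested genes a median of -0.051 with 8.21% called higher and 4.5% lower. Every hdl library was above every WT library in 15 of the 18 wax genes and 12 of the 14 cutin genes. This held for 0 of the 6 factors and for 26.7% of all tested genes. The difference between the factors and these genes was not tested as such. As given above, 3 of 5 epidermal markers were called higher and 3 of 5 vascular markers lower in hdl, and CER6 is itself among these epidermal markers. The part of such cells in the wax and cutin counts was not tested.

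**Figure D4:**
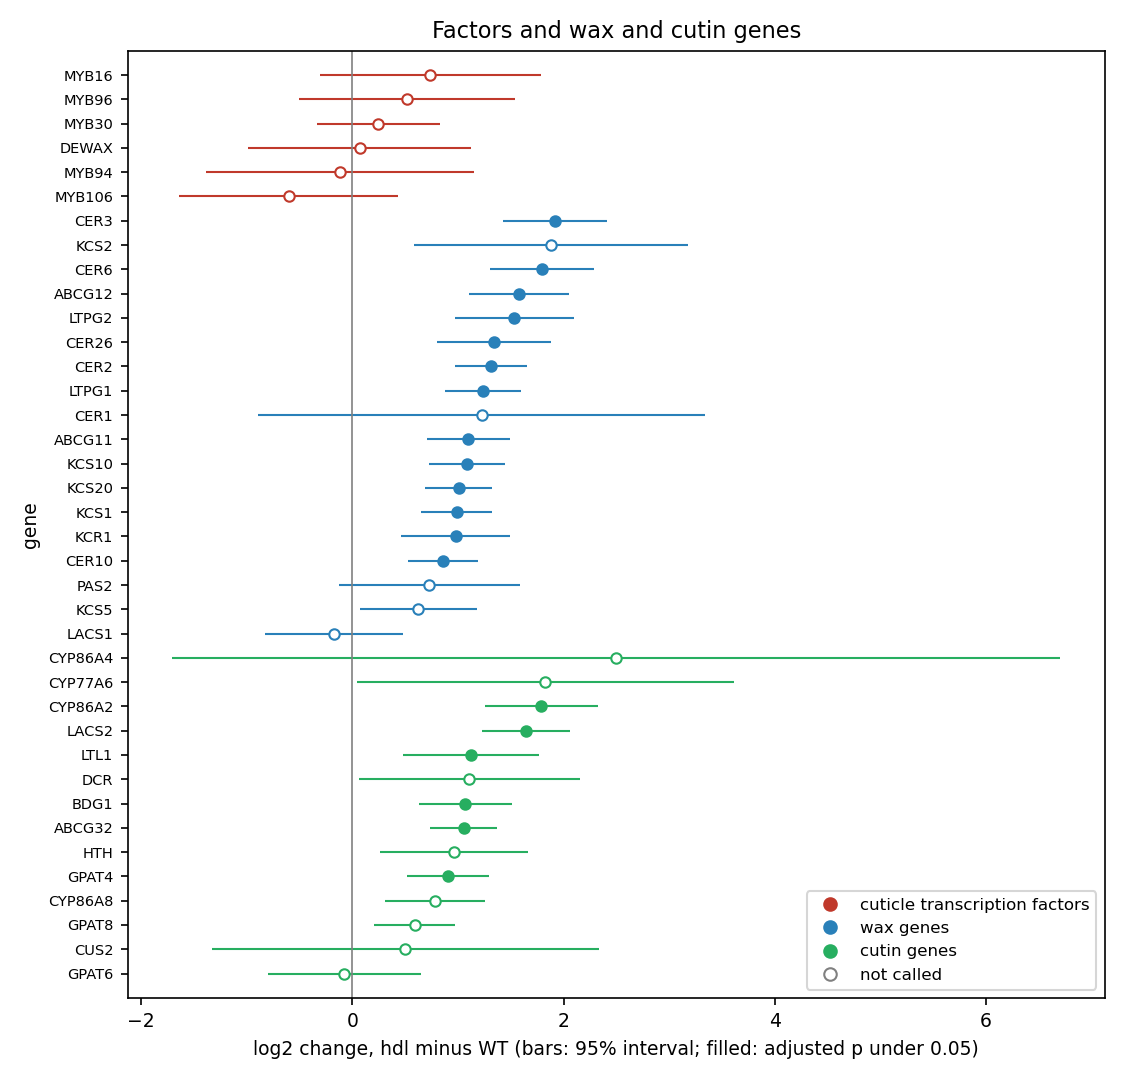
Log2 change, hdl minus WT, with 95% intervals from limma for the 6 tested factors (red), 18 wax genes (blue) and 14 cutin genes (green). Filled points passed at an adjusted p under 0.05: 0 factors, 13 wax genes and 6 cutin genes.

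Among the wax genes, CER6, which elongates very-long-chain fatty acids, had 15706 and 14730 normalized counts in hdl, against 4063, 5593 and 3700 in WT replicates 1, 2 and 3 (log2 change 1.80 ± 0.20, SE; limma adjusted p = 0.00712). In WT replicate 2, where MYB96 was 2.54 times its level in the higher of the other WT libraries, CER6 was 1.38 times. Of the 18 wax genes 1 reached the 2-fold margin there, KCS2, a ketoacyl-CoA synthase gene, at 2.42 times, and PAS2 was at 1.75 times; the median log2 deviation of that library was 0.072 over the wax genes. CER3, which acts in alkane formation, had 4004 and 3965 normalized counts in hdl, against 1188, 815 and 1199 in WT replicates 1, 2 and 3. Whether the wax genes follow MYB96 from library to library was not tested. The other named wax genes that rose were ABCG12, an exporter gene, by 1.58 on the log2 scale, CER2, a gene of fatty acid elongation, by 1.31, LTPG1, a lipid transfer protein gene, by 1.23, and KCS20, a ketoacyl-CoA synthase gene, by 1.01. PAS2 at 0.73 (limma adjusted p = 0.211) and LACS1 at -0.17 (limma adjusted p = 0.69), the wax genes nearest to the factors, did not pass. CER2 and LTPG1 overlap a gene on the opposite strand.

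Among the cutin genes, CYP86A2, a fatty acid hydroxylase gene, rose by 1.79 on the log2 scale and LACS2, an acyl-CoA synthetase gene, by 1.65. LTL1, a lipase gene, rose by 1.13, BDG1, an extracellular hydrolase gene, by 1.07, ABCG32, an exporter gene, by 1.05, and GPAT4, an acyltransferase gene, by 0.91. GPAT8 at 0.59 (limma adjusted p = 0.059) and HTH at 0.96 (limma adjusted p = 0.079) did not pass. CYP86A2 and BDG1 overlap a gene on the opposite strand. Over all 5 libraries the median log2 changes of the wax and cutin genes were 1.16 and 1.06. They were 1.06 and 0.97 without hdl replicate 1, and 1.22 and 1.08 without hdl replicate 2. Each of these fits leaves a single hdl library, whose spread is taken from WT. The counts moved with the WT library left out, as did the share of all genes called higher. Without WT replicate 3, 5 wax and 3 cutin genes passed, beside 1.83% of all genes called higher. Without WT replicate 1, 10 and 3 passed, beside 3.92%. Without WT replicate 2, 15 and 11 passed, beside 17.5%.

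Of 10 other regulators tested, 1 rose and 0 fell, a share close to the 8.21% of all tested genes called higher. It was PDF2, a homeodomain factor gene of epidermal identity, at 0.87 (limma adjusted p = 0.0202), which did not pass when any library other than WT replicate 2 was left out. CER9, a ubiquitin ligase gene, at 0.30 (limma adjusted p = 0.188) and ATML1 at 0.23 (limma adjusted p = 0.54) did not pass. Without WT replicate 2, when 17.5% of all genes were called higher and 11.3% lower, 5 of the 10 rose and 0 fell. ATML1 was then at 0.47 (limma adjusted p = 0.00591). This depended on scaling. With equal totals and WT replicate 2 left out, 2 of the 10 rose and 0 fell, beside 11% and 25.5% of all genes. ATML1 was then at 0.14 (limma adjusted p = 0.182). DEWAX2, a relative of DEWAX that was picked after its values were seen, had 532 and 556 normalized counts in hdl, against 276, 528 and 291 in WT replicates 1, 2 and 3, so that WT replicate 2 was again the highest WT library.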

How the data were processed

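The deposited gene table gives a signal that its name describes as counts normalized with DESeq2, that is, reads divided by a size factor per library. The submitters' processing notes name the TAIR10 build, Bowtie2 2.5.0, SAMtools 1.16.1, Trimmomatic 0.33, FastQC 0.11.9, DESeq2 and deepTools. They assign no role to any of them, and the counting program is not stated in the sources at hand. A second deposited file, of raw counts for other features, holds 0 of the 9 factors and was not used. All values (100%) were whole multiples of the library's step within 0.01, so reads were recovered by division; limma stayed the main test. Libraries held 15418154 to 22838239 reads.

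limma 3.58.1 (R 4.3.3) was fitted to log2(value + 1) with an intensity trend and no covariate, for genes that reached 10 normalized counts in 2 or more libraries, and p-values were adjusted by Benjamini-Hochberg. The alternatives were edgeR 4.0.16 and DESeq2 1.42.0 on the recovered reads, other scalings, filters, pseudocounts, gene sets, a replicate block and each library left out. The limma, edgeR and DESeq2 fits were tested on simulated data. Coordinates, exon lengths and sequences come from RefSeq TAIR10.1, which lists 24108 of the 24200 gene identifiers. The motifs were chosen after the data were examined.

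The factors and lists (21 wax, 15 cutin and 11 regulator genes) were chosen with earlier results of these data known. Named genes are all 9 factors, up to 6 called wax and cutin genes with the smallest p, every called regulator, the 2 most abundant uncalled genes of each list and the wax or cutin gene nearest to each factor. DEWAX2, KCS2, AT3G01142 and other cell type markers are outside this rule. Ratios of SHN genes were not computed because of their low counts.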

Additional observations from a re-analysis of the deposited data

How the results depend on the processing

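Over all genes 1674 were higher and 917 lower in hdl. DESeq2 gave 2619 and 2152, equal totals 993 and 2554, and leaving out a library 0 to 3576 and 0 to 2307. Equal totals moved the median change of all genes to -0.37. With WT replicate 2 left out, a setting combined with other tools after the data were examined, edgeR gave 3526 and 2327, DESeq2 3791 and 2710, and equal totals 5203 lower. The number of factors called higher, 0 with all libraries, was 2 with WT replicate 2 left out by limma, edgeR, DESeq2 and equal totals alike, and 0 to 2 over the libraries left out. Leaving out a library gave 0 to 15 higher wax genes, against 13, and 0 to 11 higher cutin genes, against 6. Cutin genes were 11 with edgeR or DESeq2 when WT replicate 2 was left out, and 9 with DESeq2 over all libraries. The cause of these shifts was not tested.

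With the replicate number as a block, 0 genes were higher and 0 lower, and 0 factors, wax genes and cutin genes passed. Deviations from the genotype means correlated at 0.0048 between replicates 1 and -0.012 between replicates 2. The deviations of the 2 hdl libraries mirror each other, so both values rest on the same hdl difference. They cannot show whether the numbers pair the libraries. The labels give no shared source.

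Signs turned for MYB30 with equal totals (-0.076), and for MYB94 without WT replicate 2 (-0.47 to 0.40 over the libraries left out; with that library out, 0.39 with edgeR, 0.39 with DESeq2 and 0.078 with equal totals). Over the libraries left out, the change spanned -0.99 to -0.21 for MYB106, 0.020 to 0.47 for MYB30, 0.43 to 1.17 for MYB16 and 0.28 to 0.97 for MYB96. DEWAX turned with edgeR (-0.091), DESeq2 (-0.081), equal totals (-0.25), the replicate block (-0.24), and without WT replicate 1 (-0.060) or 3 (-0.24), with -0.24 to 0.52 over the libraries left out. Outside the factors, LACS1 turned without WT replicate 2 (-0.30 to 0.069 over the libraries left out; 0.060 with edgeR and 0.061 with DESeq2), and CER9 (-0.024) and ATML1 (-0.093) with equal totals. The log2 ratio of MYB94 over MYB30 turned without WT replicate 2 (-0.64 to 0.023 over the libraries left out); the other 3 differences kept their sign but spanned -1.94 to -0.75 for MYB106 over MYB16, 0.56 to 0.77 for MYB96 over MYB94 and 0.0097 to 0.59 for MYB96 over MYB30. Of the 107 alternative values of the 6 factors 88 kept both sign and side of the threshold, 8 newly passed and 11 turned. Genes with few reads, SHN1, SHN2 and SHN3 above all, are limited by depth.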
